A study of Mus musculus with 4 samples.

Results

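The genes described here are the 10 that encode the core of MHC class I antigen presentation, taken by symbol from the 50600 genes counted: B2m, H2-K1, H2-D1, Tap1, Tap2, Tapbp, Psmb8, Psmb9, Psmb10 and Nlrc5. RNA was sequenced from primary T-helper 17 (Th17) cells, CD4 T cells that make interleukin 17, of mouse strain C57BL/6NJ. The 4 libraries form 1 group with no control, numbered in the labels as biological replicates 1 to 4. They carry different biosample identifiers and 1 shared donor identifier, the labels give no treatment and mark the age as unknown, and they do not say whether the cells came from separate animals or cultures, so SDs and p-values measure only the spread between these libraries. The assay is labelled total RNA-seq, with a linked library protocol named for poly(A)+ RNA and a differentiation protocol for CD4 T cells. A tag of 2 hours stands in each file's header, with no event named from which it runs.

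Class I molecules show peptides from inside a cell to CD8 T cells and to natural killer (NK) cell receptors. Proteasomes cut proteins into peptides, the TAP transporter carries these into the endoplasmic reticulum, and tapasin helps to load them onto a heavy chain held by beta-2 microglobulin. Nearly all nucleated cells carry class I molecules, lymphocytes at high levels, and interferons raise most of the genes through IRF1 and the coactivator NLRC5.

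The libraries held 25847970 to 40652146 counts each. All 5 CD4 T cell markers reached a mean of 1 TPM (transcripts per 1000000, a unit that corrects for gene length and sequencing depth), with a summed level of 5434 to 5813 TPM per library. Of 7 Th17 markers 5 reached 1 TPM, with a summed level of 32.0 to 46.9 TPM, and the interleukin gene Il17f was the single one above 10 TPM. Markers of other cell types, whose RNA would carry class I genes too, summed to far less than the CD4 T cell markers. Their part in the class I levels was not tested. Summed levels were 0.458 to 1.96 TPM for 7 B cell markers (Ms4a1 at 0 in every library), 5.74 to 18.1 TPM for 9 myeloid and dendritic markers (Siglech at 0, and Cd68 alone above 10 TPM), and 34.1 to 46.8 TPM for 6 CD8 and NK markers (Ncr1 and Klrb1c at 0, with Cd8b1 and Klrd1 above 10 TPM). The CD8 and NK sum was thus about as high as the Th17 sum. Cd8b1, at a mean of 27.0 TPM, stood above every Th17 marker (Il17f, the highest, at 12.4 TPM), while Cd8a had 0.216 TPM. The sex-linked RNA Xist stood at 142 and 76.5 TPM in replicates 3 and 4 and at 0.791 and 0.602 TPM in replicates 1 and 2. Genes of the Y chromosome split them the other way: Ddx3y had 0.914 and 1.39 TPM in replicates 3 and 4 against 305 and 213 TPM in replicates 1 and 2, and Eif2s3y had 0.444 and 0.622 TPM against 64.9 and 71.2 TPM. Replicates 1 and 2 thus had the RNA pattern of male cells, and replicates 3 and 4 that of female cells. The labels, with 1 donor identifier, do not record this split or account for it. The spread between the libraries includes any difference between the sexes, which was not tested. In bulk RNA, fewer cells of a type and less RNA per cell cannot be told apart.

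All 10 class I genes were expressed in every library, and their mean levels ran from 79.0 to 11258 TPM. These means had a median of 302 TPM, set beside 0.279 TPM over 21764 protein coding genes and 24.9 TPM over the 9831 of these at 1 TPM or more. Together the 10 genes summed to 21397 ± 948 TPM (SD, n = 4) and took 1.14 ± 0.0372% of all counts. B2m, H2-K1 and H2-D1, the chains of the class I molecule itself, took 0.937 ± 0.0499% of counts. The other 7 genes, of peptide supply, loading and regulation, had means of 79.0 to 431 TPM.

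**Figure D1:**
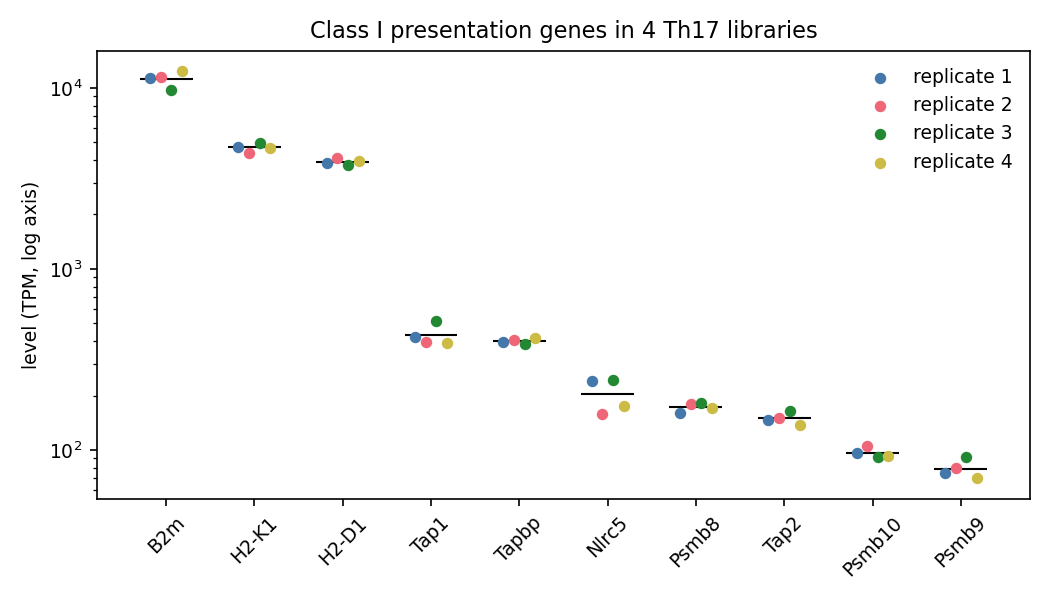
Level of each class I gene in each of the 4 Th17 libraries, in TPM on a log axis; points are libraries and the line is their mean. B2m, H2-K1 and H2-D1 sit between 3749 and 12392 TPM, and the other 7 genes between 69.8 and 518 TPM.

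B2m encodes beta-2 microglobulin, the light chain that every class I heavy chain needs to fold and reach the surface. It lies on mm10 chr2:122147686-122153083. Its level was 11337, 11539, 9765 and 12392 TPM in replicates 1 to 4, a mean of 11258 ± 1096 TPM that ranked 6 among all genes and 5 among protein coding genes. Replicate 4 was highest and replicate 3 lowest. None of the 31-base words of its transcripts occurs in a transcript of another gene.

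H2-K1 encodes the classical heavy chain H-2K, which presents peptides to CD8 T cells. It lies on the minus strand of mm10 chr17:33996017-34000333. Its level was 4748, 4396, 4975 and 4687 TPM in replicates 1 to 4 (mean 4701 ± 239 TPM), and the libraries lay close together. H2-D1, the gene of the heavy chain H-2D, on the plus strand of mm10 chr17:35262730-35267499, had 3832, 4091, 3749 and 3946 TPM (mean 3904 ± 148 TPM). The lowest H2-K1 library stood above the highest H2-D1 library.

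H2-K1 exceeded H2-D1 in 4 of 4 libraries, by a mean log2(TPM + 1) difference of 0.27 ± 0.13. In the exact two-sided sign-flip permutation test this gave p = 0.125 (adjusted p = 0.15 over 6 gene pairs), the smallest p that 4 libraries allow, so no such comparison here could pass 0.05. The ratio of H2-K1 to H2-D1 was 1.21 ± 0.105 with the deposited union exon lengths and 1.58 ± 0.138 with the length of 1 principal transcript per gene. The principal transcripts are 91.2% identical over 1470 aligned bases. Of the 31-base words of H2-K1, 22.8% occur in another gene (11.1% in H2-D1), and of those of H2-D1 26.7% (13.8% in H2-K1). Fragments that align equally well to several genes were not counted under the recorded options, so both levels, and their ratio, are uncertain.

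The light chain and the heavy chains can be set against each other per length. The ratio of B2m to the sum of H2-K1 and H2-D1 was 1.32, 1.36, 1.12 and 1.44 in replicates 1 to 4 (mean 1.31 ± 0.135). With principal transcript lengths the same ratio averaged 0.911 ± 0.0975, so which side was more abundant turned on the length used. Over the 16 class I and class I-like heavy chain genes listed here, which are not all such genes, the ratio was 0.976 ± 0.129. It was lowest in replicate 3 and highest in replicate 4. It was 0.650 ± 0.0902 with principal transcript lengths, and below 1 in every library. Besides length, shared sequence bears on all of these ratios. The share of words found in other genes was 0% for B2m, 22.8% for H2-K1 and 26.7% for H2-D1. Among the other listed heavy chain genes it ran from 0.149% (Mr1) to 51.0% (H2-T22). Shared fragments left uncounted lower the heavy chain sums, so each ratio can be too high. By how much was not tested.

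The upstream sequences of these 3 genes carry elements known from textbook class I promoters, and are shown because the chains of the molecule are the most abundant members. Searched were 4 motifs, on both strands of the 250 bases before each RefSeq start (GRCm38.p6, 32851 starts): GGGATTCCC, an NF-kB core; GAANNGAAA, a pair of interferon regulatory factor core elements; TGACG, the core of a CRE, which lies in the X2 part of the class I enhancer; and CCAAT, the Y box bound by NF-Y. Capitals mark these motifs on either strand, written 5′ to 3′ on the strand of the gene.
H2-K1, GRCm38.p6 chr17:34000348-34000537, minus strand: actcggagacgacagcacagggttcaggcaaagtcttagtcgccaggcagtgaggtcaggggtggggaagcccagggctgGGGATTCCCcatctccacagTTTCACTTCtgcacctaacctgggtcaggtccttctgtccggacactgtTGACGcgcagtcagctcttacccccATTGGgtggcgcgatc
B2m, GRCm38.p6 chr2:122147497-122147685, plus strand: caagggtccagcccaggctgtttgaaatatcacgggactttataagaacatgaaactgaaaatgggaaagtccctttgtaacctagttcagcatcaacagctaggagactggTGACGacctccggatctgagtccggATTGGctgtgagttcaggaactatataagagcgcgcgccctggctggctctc

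The stretch from the NF-kB core to the interferon regulatory factor pair was nearly the same in both heavy chain genes, with 28 of 29 bases in common.
H2-K1, GRCm38.p6 chr17:34000429-34000457, minus strand: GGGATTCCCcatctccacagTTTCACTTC
H2-D1, GRCm38.p6 chr17:35262924-35262952, plus strand: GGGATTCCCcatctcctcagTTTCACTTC
This arrangement, with 11 bases between the motifs, occurred before 4 of the 32851 starts, or 0.0122%, and these belong to H2-K1, H2-D1 and H2-Q6. H2-K1 was counted at each of its RefSeq starts. The spacing was taken from the H2-K1 and H2-D1 sequences themselves, so their own matches were fixed in advance. In the deposited annotation this H2-D1 stretch, like the one that follows, lies within an H2-D1 exon that begins upstream of the RefSeq start.

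The stretch from the CRE core to the reversed Y box is shown because H2-K1, H2-D1 and B2m, which encode different chains of the molecule, all carry it with the same spacing.
H2-K1, GRCm38.p6 chr17:34000359-34000388, minus strand: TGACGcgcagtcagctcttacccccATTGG
H2-D1, GRCm38.p6 chr17:35262993-35263022, plus strand: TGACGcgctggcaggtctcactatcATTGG
B2m, GRCm38.p6 chr2:122147609-122147638, plus strand: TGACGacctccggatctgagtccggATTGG
The motifs were 20 bases apart in each. H2-K1 and H2-D1 shared 23 of the 30 bases, H2-K1 and B2m 13, and H2-D1 and B2m 12, of which 10 are the motifs themselves. The same spacing was found before 30 of 32851 starts (0.0913%), of 26 gene symbols, among them 3 class I members and H2-M3, a class I-like heavy chain. The spacing was examined after these sequences had been seen, and a match of letters is a description, not a bound site.

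Taken singly, the 2 shorter motifs were common. RefSeq starts were matched for 8 of the 10 members, all but Tap2 and Nlrc5. The CRE core was found for 5 of the 8 (B2m, H2-K1, H2-D1, Tap1 and Psmb9) and before 17.8% of all starts, and the Y box for 6 of the 8 (these 5 and Tapbp) and before 33.8% of all starts. The letters searched for the interferon regulatory factor pair and the NF-kB core matched H2-K1 and H2-D1 alone among the 8. They matched before 6.31% and 0.301% of all starts. Other spellings of these elements were not searched, so their absence from the remaining members was not tested. The B2m window above holds gaaactgaaa and gggaaagtccc, which resemble the 2 motifs but are not matched by the searched letters.

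Tap1 and Tap2 encode the subunits of the peptide transporter, which works as a heterodimer. Tap1 (mm10 chr17:34187553-34197225) had 423, 395, 518 and 388 TPM in replicates 1 to 4, a mean of 431 ± 60.0 TPM, with replicate 3 above the others. Tap2 (mm10 chr17:34203527-34216321) had 146, 151, 164 and 137 TPM, a mean of 149 ± 11.2 TPM, and was highest in replicate 3 by TPM and in replicate 2 on the TMM scale given further on. Every Tap1 library stood above every Tap2 library.

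Within each library Tap1 exceeded Tap2 by a mean log2(TPM + 1) difference of 1.52 ± 0.11 in 4 of 4 libraries (exact sign-flip permutation test, p = 0.125, adjusted p = 0.15). The ratio was 2.88 ± 0.223 with union exon lengths and 4.86 ± 0.376 with principal transcript lengths. Little sequence is shared, with 0.825% of Tap1 words and 1.34% of Tap2 words found in other genes.

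Tapbp encodes tapasin, which holds empty class I molecules at the transporter and edits their peptides. It lies on mm10 chr17:33915899-33929288. Its level was 393, 407, 386 and 416 TPM in replicates 1 to 4, a mean of 400.3 ± 13.6 TPM. The 4 values lay close together by TPM, whereas the TMM-scaled counts had a coefficient of variation of 8.85% over the libraries. The 2 did not differ beyond their spread: Tap1 minus Tapbp was 0.10 ± 0.24 on the log2(TPM + 1) scale, with Tap1 higher in 2 of 4 libraries (exact sign-flip permutation test, p = 0.625, adjusted p = 0.625 over 9 neighbours in the order of levels). The difference was 0.80, with Tap1 higher in 4 of 4 libraries, when principal transcript lengths were used.

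Psmb8, Psmb9 and Psmb10 encode the catalytic subunits LMP7, LMP2 and MECL-1 of the immunoproteasome. They take the places of the constitutive subunits encoded by Psmb5, Psmb6 and Psmb7 and favour peptides that fit class I molecules. Psmb8 (mm10 chr17:34197721-34201454) had 160.1, 179.9, 181 and 171 TPM in replicates 1 to 4, a mean of 173 ± 9.66 TPM. Psmb9 (minus strand, mm10 chr17:34181988-34187764) had 74.9, 79.7, 91.5 and 69.8 TPM, a mean of 79.0 ± 9.26 TPM. Psmb10 (minus strand, mm10 chr8:105935735-105938444) had 96.4, 106, 91.1 and 93.2 TPM, a mean of 96.6 ± 6.41 TPM. The highest library was replicate 3 for Psmb9 and replicate 2 for Psmb10 by TPM and by TMM-scaled counts; for Psmb8 it was replicate 3 by TPM and replicate 2 by TMM-scaled counts.

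The constitutive subunits stood in the same range. Psmb5 had 94.4, 105, 93.1 and 114 TPM (mean 102 ± 10.05 TPM), Psmb6 had 182, 182, 176 and 200.3 TPM (mean 185 ± 10.7 TPM), and Psmb7 had 97.2, 100.7, 89.0 and 107 TPM (mean 98.6 ± 7.58 TPM). Each was highest in replicate 4 and lowest in replicate 3.

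Each immunoproteasome subunit was set against its counterpart within each library. Psmb8 exceeded Psmb5 in 4 of 4 libraries, by 0.76 ± 0.15 on the log2(TPM + 1) scale (exact sign-flip permutation test, p = 0.125, adjusted p = 0.15). Psmb9 lay below Psmb6 in 4 of 4 libraries, with a difference of -1.22 ± 0.24 (the same test, permutation p = 0.125, adjusted p = 0.15). Psmb10 and Psmb7 overlapped, with a difference of -0.03 ± 0.12 and Psmb10 higher in 2 of 4 libraries (permutation p = 0.875, adjusted p = 0.875). The summed immunoproteasome subunits reached 0.909 ± 0.0947 of the summed constitutive ones with union exon lengths, from 0.791 in replicate 4 to 1.02 in replicate 3. With principal transcript lengths this summed ratio was 0.769 ± 0.0885.

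Transcript length changed the third comparison. With principal transcript lengths Psmb10 lay below Psmb7 in every library, at a ratio of 0.434 ± 0.0352 against 0.983 ± 0.0797 with union exon lengths, Psmb8 to Psmb5 was 2.97 ± 0.320 against 1.71 ± 0.184, and Psmb9 to Psmb6 was 0.496 ± 0.0824 against 0.430 ± 0.0714. The level of Psmb5 is uncertain in itself: 71.7% of its 31-base words occur in other genes, 59.8% in Gm3375, and 12.5% of its exon bases also belong to Mir686, and fragments shared with these genes were not counted under the recorded options. Psmb9, Psmb10 and the other constitutive subunits shared from 0% to 6.24% of their words.

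**Figure D2:**
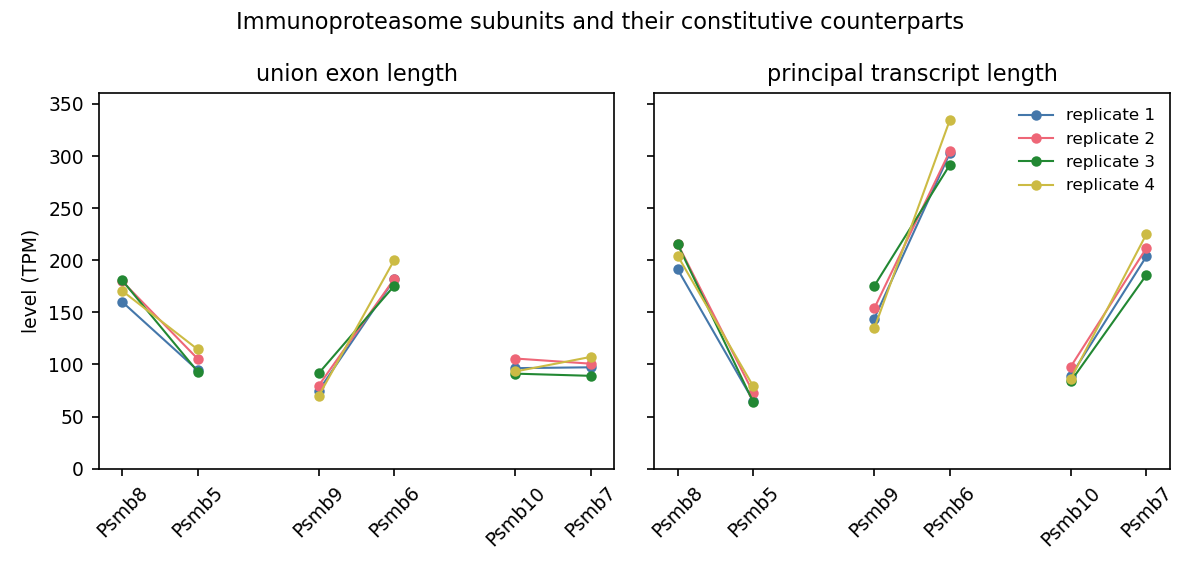
Level in TPM of each immunoproteasome subunit (left of each pair) and its constitutive counterpart (right), with lines joining the values of 1 library; the left panel divides counts by union exon length and the right panel by principal transcript length. Psmb8 lies above Psmb5 and Psmb9 below Psmb6 in all 4 libraries in both panels, whereas Psmb10 and Psmb7 overlap in the left panel only.

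Psmb9, Tap1, Psmb8 and Tap2 lie side by side in the MHC on chromosome 17, with 495 bases between Tap1 and Psmb8 and 2072 bases between Psmb8 and Tap2. Tap1 and Psmb9 face away from each other from RefSeq starts 225 bases apart, a stretch known as a shared bidirectional promoter. It held 1 CRE core, 86 bases before the Tap1 start and 144 before that of Psmb9, and 1 Y box, 8 bases before the Psmb9 start. In all 4 libraries Tap1 exceeded Psmb9, by 2.43 ± 0.09 on the log2(TPM + 1) scale (exact sign-flip permutation test, p = 0.125, adjusted p = 0.15), a ratio of 5.46 ± 0.336. The ratio was 3.74 ± 0.230 with principal transcript lengths. The annotated exons overlap on opposite strands, over 3.87% of Tap1 and 5.79% of Psmb9 exon bases, and the strand setting of the counting keeps their fragments apart.

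Nlrc5 encodes the coactivator that gathers RFX, CREB and NF-Y proteins on class I promoters, the counterpart of CIITA on class II promoters. It lies on mm10 chr8:94434356-94527272. Its level was 240.0, 158, 244 and 175 TPM in replicates 1 to 4, a mean of 204 ± 44.0 TPM. Replicates 1 and 3 were high and replicates 2 and 4 low. Nlrc5 overlapped Psmb8, higher in 3 of 4 libraries, with a log2(TPM + 1) difference of 0.22 ± 0.35 (exact sign-flip permutation test, p = 0.375, adjusted p = 0.422). Divided by principal transcript lengths, its mean was 163 ± 34.6 TPM and lay below that of Psmb8 (207 ± 11.5 TPM).

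By mean TPM the order was B2m, H2-K1, H2-D1, Tap1, Tapbp, Nlrc5, Psmb8, Tap2, Psmb10 and Psmb9. Of the 9 neighbouring pairs, 4 had overlapping ranges: Tap1 and Tapbp, Nlrc5 and Psmb8, Psmb8 and Tap2, and Psmb10 and Psmb9. Psmb8 exceeded Tap2 in 4 of 4 libraries all the same (0.21 ± 0.09; exact sign-flip permutation test, p = 0.125, adjusted p = 0.188), while Psmb10 exceeded Psmb9 in 3 of 4 (0.29 ± 0.20; permutation p = 0.25, adjusted p = 0.321). With principal transcript lengths the first 5 places were the same, and Psmb8, Nlrc5, Psmb9, Tap2 and Psmb10 followed.

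The members were next compared between libraries. For this the counts were scaled by TMM, since TPM of the median gene in replicate 3 stood 0.12 higher on the log2 scale than its TMM-scaled count per 1000000 (CPM), with differences of -0.07 to -0.004 in the other libraries. None of the 10 members was called as varying beyond the dispersion trend (edgeR deviance against a chi-square distribution, adjusted p = 1.00 for each), where 94 of 11567 genes tested, or 0.813%, were called. None had an unadjusted p under 0.05, against 5.98% of all tested genes, and the members' median p was 0.772 against 0.596 over all tested genes. Without 1 library at a time 35 to 60 genes were called, none of them a class I member. The common biological coefficient of variation was 15.1%. Differences between libraries of about this size were not detectable.

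**Figure D3:**
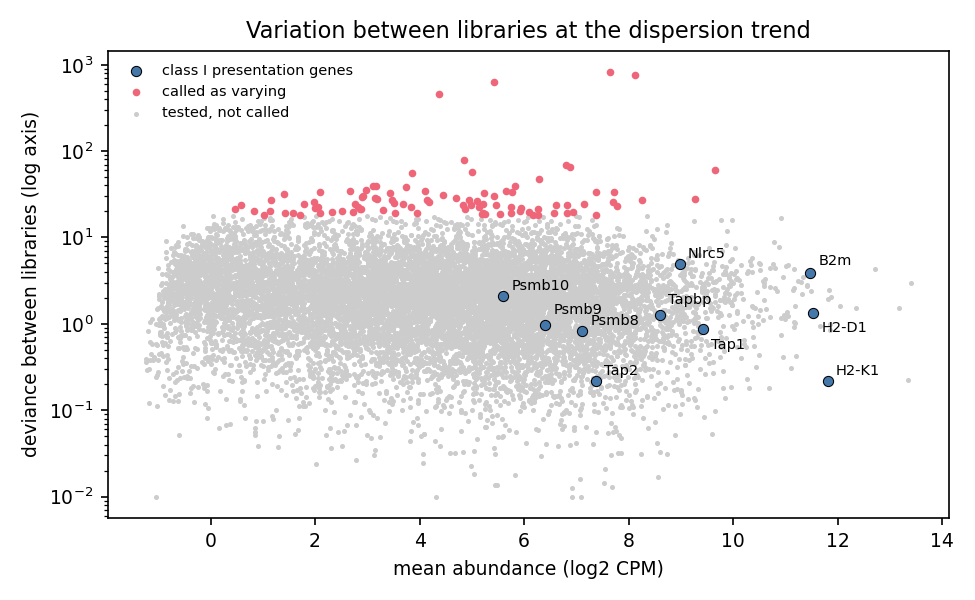
Deviance between the 4 libraries at the trended dispersion (log axis) against mean abundance in log2 CPM, 1 point per tested gene; genes called as varying are red and class I genes are blue. The 10 class I genes lie among the uncalled genes, with Nlrc5 and B2m the highest of them.

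Nlrc5 and B2m had the widest ranges among the members. The TMM-scaled level of Nlrc5 was 598, 406, 557 and 457 CPM in replicates 1 to 4, a highest to lowest ratio of 1.47 (edgeR, unadjusted p = 0.177). That of B2m was 2863, 3002, 2262 and 3273 CPM, a ratio of 1.45 (edgeR, unadjusted p = 0.279). The coefficient of variation over libraries ran from 3.50% for Tap2 and 3.70% for H2-K1 to 15.0% for B2m and 17.6% for Nlrc5. Its median was 8.25% over the members, 12.6% over all tested genes and 10.2% over the 3320 tested genes of at least 50 mean TPM.

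The members did not follow 1 order of libraries. On the TMM scale B2m, H2-D1, Tapbp, Psmb8 and Psmb10 were highest in replicates 2 and 4, as were 20.2% of tested genes. Nlrc5 and Tap1 were highest in replicates 1 and 3 (20.9% of tested genes). Tap2 and Psmb9 were highest in replicates 2 and 3 (20.3%), and H2-K1 in replicates 1 and 4 (20.7%). No member had replicates 1 and 2, or replicates 3 and 4, as its 2 highest libraries, the split seen for Xist; these pairs were highest for 9.71% and 8.21% of tested genes. Replicate 3 was lowest in 4 members (B2m, H2-D1, Tapbp and Psmb10), as it was in 31.9% of tested genes. B2m, Tapbp and the 3 constitutive subunits Psmb5, Psmb6 and Psmb7 all ran replicate 4, 2, 1, 3 from high to low, an order held by 6.86% of tested genes.

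The nuclear long noncoding RNAs Malat1 and Neat1, looked at after their values were known, were also highest in the 2 libraries where Nlrc5 and Tap1 were, unlike Xist. On the TMM scale 20.9% of tested genes had these 2 libraries highest. Malat1 had 427, 209, 795 and 188 TPM and Neat1 34.8, 26.0, 58.2 and 20.7 TPM in replicates 1 to 4, and their part in the Nlrc5 and Tap1 values was not tested.

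**Figure D4:**
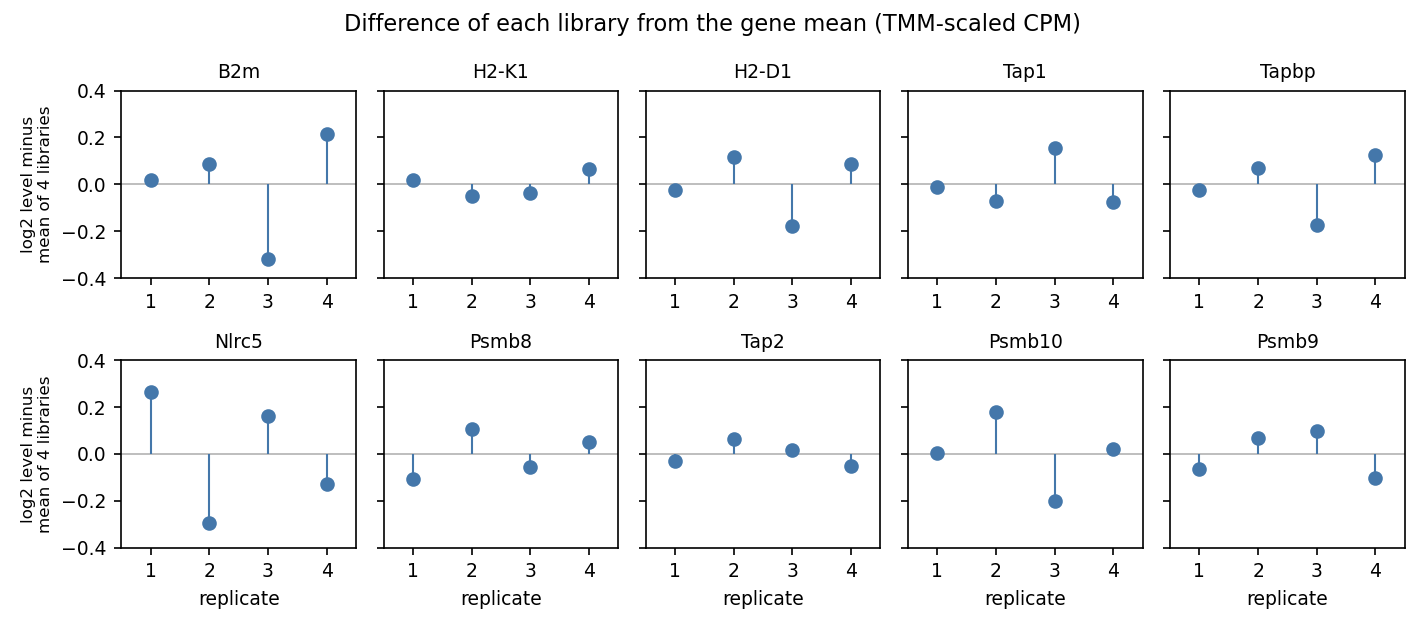
Log2 of the TMM-scaled CPM of each class I gene in each replicate, minus the mean over the 4 libraries; points are libraries and stems start at 0. B2m is lowest in replicate 3 and highest in replicate 4, Nlrc5 is high in replicates 1 and 3, and H2-K1 and Tap2 stay near 0.

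Genes that work beside the members were described from lists by role. Of the 14 other class I and class I-like heavy chain genes listed, 11 reached 1 TPM. H2-Q4 led with 1339.6, 1027, 1632 and 1167 TPM in replicates 1 to 4 (mean 1292 ± 261 TPM), and was highest in replicate 3. H2-Q6 at 486 ± 64.0 TPM and H2-Q7 at 462 ± 73.6 TPM came next, within each other's spread. Under principal transcript lengths H2-Q7 stood at 936 ± 146 TPM and H2-Q6 at 345 ± 44.6 TPM. H2-Q1 was lowest, with 2 counts over the 4 libraries. Other genes hold 38.4% of the 31-base words of H2-Q4, 50.3% of those of H2-Q6 and 39.1% of those of H2-Q7, which makes all 3 levels uncertain.

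All 7 partners of peptide loading and trimming reached 1 TPM. The chaperone gene Calr (calreticulin) led at 751 ± 41.6 TPM, followed by Pdia3, which encodes ERp57, at 259 ± 15.6 TPM, and Uggt1, whose product rechecks glycoprotein folding, was lowest at 52.3 ± 5.01 TPM. All 4 genes of proteasome assembly and the PA28 activator did so as well, with the activator genes Psme1 at 325 ± 22.7 TPM, Psme3 at 310.3 ± 46.1 TPM and Psme2 at 299.7 ± 17.3 TPM close to each other, and the assembly factor Pomp at 57.7 ± 6.95 TPM last. Principal transcript lengths gave 459 ± 31.7 TPM for Psme1, 391 ± 22.1 TPM for Psme2, 244 ± 36.2 TPM for Psme3 and 136 ± 16.5 TPM for Pomp.

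Transcriptional regulators of class I genes were all present, 15 of 15 at 1 TPM or more. Irf1, which encodes an interferon-induced activator, led at 753, 972, 1111 and 676 TPM in replicates 1 to 4 (mean 878 ± 200 TPM). Rela, the NF-kB subunit p65, stood at 613 ± 33.1 TPM, or at 436 ± 22.7 TPM with principal transcript lengths, which put Nfkb1 (512 ± 149 TPM) above it. Rfxank, a subunit of the RFX complex, was lowest at 11.98 ± 2.08 TPM. Irf1 was highest in replicates 3 and 2.

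All 8 interferon receptor and signalling genes reached 1 TPM. Socs1, a feedback inhibitor of the Janus kinases, stood at 1883 ± 196 TPM and Jak1 at 683 ± 18.3 TPM, whereas the kinase gene Tyk2 was lowest at 29.8 ± 4.13 TPM. The order of Socs1 and Jak1 turned when principal transcript lengths were used, with 562 ± 60.1 TPM for Socs1 and 716 ± 18.1 TPM for Jak1. The principal transcript of Socs1, from a later annotation, has 2908 bases against the 1220 exon bases on which its fragments were counted. Its value of 562 TPM thus divides by bases that were not counted, and the turned order is uncertain.

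The class II pathway, which mouse T cells express little of, stood far lower. Of its 10 genes 6 reached 1 TPM, and the median was 302 TPM over the class I members against 1.38 TPM over the class II genes. H2-Ob (39.6 ± 7.67 TPM) and H2-DMa (14.4 ± 2.32 TPM) led. Ciita, the class II transactivator and relative of Nlrc5, had 6 counts over the 4 libraries, at 0, 0.0311, 0 and 0.0985 TPM in replicates 1 to 4.

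No gene of these 7 lists, the constitutive subunits among them, was called as varying between the libraries. In the edgeR deviance test, the lowest adjusted p was 0.0978 for Nfkb1 and 0.240 for Tapbpl, and these 2 alone had an unadjusted p under 0.05 among the 53 listed genes tested. Nfkb1 and Tapbpl are named because of these values.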

How the data were processed

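Values deposited by the authors are raw fragment counts per gene, made with featureCounts 1.4.6-p4 on GENCODE mouse M13 exons, per the file headers; the labels name mm10. The options recorded there require both ends mapped, use reverse strandedness (option value 2) and name none that would count fragments of several alignments or genes. STAR appears in the alignment file names, without its version. The union exon length of each gene, which the authors deposited beside the counts, was used as deposited; no score or normalised value was taken from the authors.

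TPM was computed from counts and union exon lengths. Of 50600 identifiers 50376 were matched to GENCODE M21 symbols. Differences between genes were taken within each library as log2(TPM + 1) and tested by exact sign-flip permutation (two-sided), with Benjamini-Hochberg adjustment over 6 gene pairs and over 9 neighbours; the smallest possible p is 0.125. Variation between libraries was tested over 11567 genes with edgeR 4.0.16 in R 4.3.3 (intercept only, its expression filter, TMM, each gene's deviance at the dispersion trend, chi-square with 3 degrees of freedom, Benjamini-Hochberg adjusted p under 0.05), and the step was tested on simulated data. With 1 group no contrast between groups was possible. DESeq2 1.42.0 gave alternative size factors and dispersions. Pairs of libraries differed by a chi-square of 16.5 to 53.5 per degree of freedom, so none was a repeat of another. Shared sequence was measured as 31-base words of M21 transcripts, and upstream sequences are RefSeq's. Python 3.11.15, pandas 2.3.3 and Biopython 1.88 did the rest.

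The members and gene lists were chosen with earlier results of these data known. All 10 members and the 3 constitutive subunits are named, from each other list the 2 highest and the lowest gene by mean TPM, any listed gene called as varying, and Irf1 and Ciita; 1 further gene that the rule names is not reported here. H2-Q7, Psme2, Nfkb1 and Tapbpl are named in addition, after their values were seen. Among markers, those above 10 TPM or at 0 are named where the cell type is not the labelled one.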

Additional observations from a re-analysis of the deposited data

How the results depend on the processing

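Levels depend on the length by which counts are divided. The summed level of the 10 members was 18417 TPM with principal transcript lengths, an alternative added after the data had been seen, and 6284 and 6256 FPKM with TMM and DESeq2 size factors, which are another unit. Without length division B2m minus H2-K1 turned to -0.344, Tapbp minus Nlrc5 to -0.368, Psmb8 minus Tap2 to -0.254 and Psmb10 minus Psmb9 to -0.793 on the log2(CPM + 1) scale. With principal transcript lengths Nlrc5 minus Psmb8 turned to -0.366 and Psmb10 minus Psmb9 to -0.755. Leaving out 1 library gave -0.0598 to 0.0299 for Psmb10 minus Psmb7, positive without replicate 4, and -0.0118 to 0.163 for Tap1 minus Tapbp, negative without replicate 3. The other 97 recomputed differences kept their sign, and none of the permutation tests could pass 0.05. The count of varying genes was 35 to 60 without 1 library, where fewer libraries enter the test, and 85 to 96 under other scalings, filters or dispersions. Members had adjusted p values of 0.932 to 1.00 under every setting run, with 0 of 90 below 0.05. Genes were compared within each library, but no pairing of samples between groups was possible because there is 1 group of libraries. The deepest and shallowest libraries held 40652146 and 25847970 counts, which leaves the members well counted and genes such as H2-Q1 and Ciita near the limit of detection.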

Other observations

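Several nonclassical class I genes, chosen for mention after their values were seen, were also present. H2-T23 encodes Qa-1, which shows leader peptides of other class I chains to inhibitory NK receptors, and stood at 298, 334, 325 and 303 TPM in replicates 1 to 4 (mean 315 ± 17.3 TPM). H2-M3, which presents formylated peptides, stood at 55.4 ± 5.57 TPM, and the lipid-presenting Cd1d1 at 26.0 ± 3.27 TPM. Mr1, which presents vitamin B metabolites to mucosal invariant T cells, was far lower at 3.73 ± 0.6996 TPM (6.32 ± 1.17 TPM with principal transcript lengths). Of their 31-base words, 24.5% for H2-T23, 4.62% for H2-M3, 24.8% for Cd1d1 and 0.149% for Mr1 occur in other genes, so the levels of H2-T23 and Cd1d1 are less certain. Erap1, the peptidase that trims peptides in the endoplasmic reticulum, stood at 131 ± 11.6 TPM, between Psmb8 and Psmb10 in level. With principal transcript lengths Erap1 stood at 66.1 ± 5.97 TPM, below every member. Its principal transcript, from a later annotation, has 5644 bases against the 4014 exon bases on which its fragments were counted. The lower placing thus divides by bases that were not counted and is uncertain.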
